A study of Mus musculus with 8 samples.

Results

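Fragments of C/D box snoRNAs were described in 8 small RNA libraries of male mouse primordial germ cells (mPGCs) and mPGC-like cells (mPGCLCs). They were defined as sequences of 18 to 40 nt found exactly, on the sense strand, in a GENCODE transcript of biotype snoRNA whose gene name begins with Snord. Of 1623106 distinct sequences of 18 to 40 nt in the 8 libraries, 1747 met this definition. They came from 80 of 97 annotated Snord genes, while sequences of any kind matched 20315 genes of all biotypes. The other 17 Snord genes, all Snord116 copies (Snord116l1 to Snord116l17), had no read in any library.

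C/D box snoRNAs are nucleolar RNAs that carry a box C (TGATGA at its end, in DNA letters) near the 5′ end and a box D (CTGA) near the 3′ end, and many hold internal copies of both, called C′ and D′. The bases just before box D or D′ pair with a target RNA, mostly ribosomal RNA, and guide its 2′-O-methylation, while a few members act in the cleavage and folding of the ribosomal RNA precursor. Most are cut from introns of host genes, many of which encode ribosomal proteins, and pieces of them are recovered in small RNA libraries of many cell types.

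The groups were mPGCs of 3 embryonic stages and mPGCLCs at day 6 of culture, with 2 libraries in each. All mPGCs were male, of GOF18 origin, a reporter in which a Pou5f1 (Oct4) regulatory fragment drives EGFP. The labels give their strain as C57BL/6J and a sort for SSEA1 and CD61, whereas the study's methods give a mixed FVB/C57BL/6J background and a sort for EGFP. Each mPGC library held pooled embryos, and replicates came from different litters. The mPGCLCs were derived from the male SGET embryonic stem cell line, of strain B6CBA/129, as cells positive for Stella-GFP and negative for Esg1-tdTomato in embryoid bodies, so that this group rests on a single line. The 2 SGET libraries are called replicates by their labels, and nothing given shows that they came from separate cultures, so p values measure the spread between these samples.

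The libraries held 7447873 and 13614516 reads (E12.5), 12043363 and 19734948 (E13.5), 13601492 and 26552524 (E15.5), and 10209580 and 9526338 (SGET mPGCLCs), for replicates 1 and 2. Snord reads numbered 21572 and 66511 (E12.5), 30562 and 102733 (E13.5), 8411 and 38896 (E15.5), and 60680 and 46361 (SGET mPGCLCs). Replicate 2 of E15.5 stood apart from the other 7 libraries. In it, 400 of 428 distinct Snord sequences had 20 counts or fewer and together held 768 reads, whereas 23 sequences with at least 128 counts held 97.4% of its Snord reads, and the most abundant held 31.9%. In the other libraries the most abundant Snord sequence held between 2.54% and 6.85% of Snord reads. The random adapter bases did not serve to count molecules, and copies made by PCR cannot be told apart from separate molecules. Means of the E15.5 group below include this library.

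The share of reads that matched Snord genes was lowest in the E15.5 libraries. It was 0.290% and 0.489% (E12.5), 0.254% and 0.521% (E13.5), 0.0618% and 0.146% (E15.5), and 0.594% and 0.487% (SGET mPGCLCs). The E15.5 libraries lay below all 6 others, whereas E12.5 and E13.5 libraries overlapped, and 1 of the SGET libraries lay within the range of the earlier mPGC stages. Counting error was small beside this spread: the 95% Wilson interval was 0.0605% to 0.0632% in the lowest library and 0.590% to 0.599% in the highest. These intervals, and the limits given for counts of 0, cover counting error only, since reads copied by PCR are not independent.

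The mean share at E13.5 (0.387% ± 0.189, SD, n = 2) was 0.995-fold that at E12.5 (0.389% ± 0.141, SD, n = 2), with a propagated SD of 0.604 (two-sided exact permutation test, p = 1). From E13.5 to E15.5 the ratio was 0.269 ± 0.203 (exact permutation p = 0.333), and that p was the smallest that 2 libraries against 2 can give. The ratio of SGET mPGCLCs (0.541% ± 0.0761, SD, n = 2) was 1.39 ± 0.539 to E12.5 and 1.40 ± 0.708 to E13.5, both with an exact permutation p of 0.667. With 2 libraries a group, none of these comparisons can pass a threshold of 0.05. With Snord reads of 43 nt counted as well, a choice made after seeing the data, the ratio of SGET mPGCLCs was 0.842 to E12.5 and 0.967 to E13.5 (exact permutation p = 1 in each), so its direction was not kept, and that of E15.5 to E13.5 was 0.221 (exact permutation p = 0.333). In bulk libraries, fewer cells with a given RNA and less of it per cell cannot be told apart.

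The lower share at E15.5 depended on the reads it was set against. Reads of 18 to 40 nt at E15.5 had a median length of 27 nt in both replicates, and 74.8% and 75.9% of them began with U. Without 24 to 33 nt reads that begin with U in the total, the ratio of E15.5 to E13.5 was 0.694. Set against reads that match annotated miRNA genes, which made up 2.35% and 2.02% of reads at E15.5 and 19.3% ± 5.16 at E13.5 (SD, n = 2), the E15.5 libraries lay above those of E12.5 and E13.5 and overlapped the SGET libraries. There were 0.0264 and 0.0726 Snord reads per miRNA-matching read at E15.5, against 0.0162 and 0.0226 (E13.5), 0.0207 and 0.0215 (E12.5), and 0.0352 and 0.0187 (SGET mPGCLCs). The E15.5 to E13.5 ratio on this scale was 2.55 ± 1.79 (exact permutation p = 0.333), and 1.36 without replicate 2 of E15.5.

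**Figure D1:**
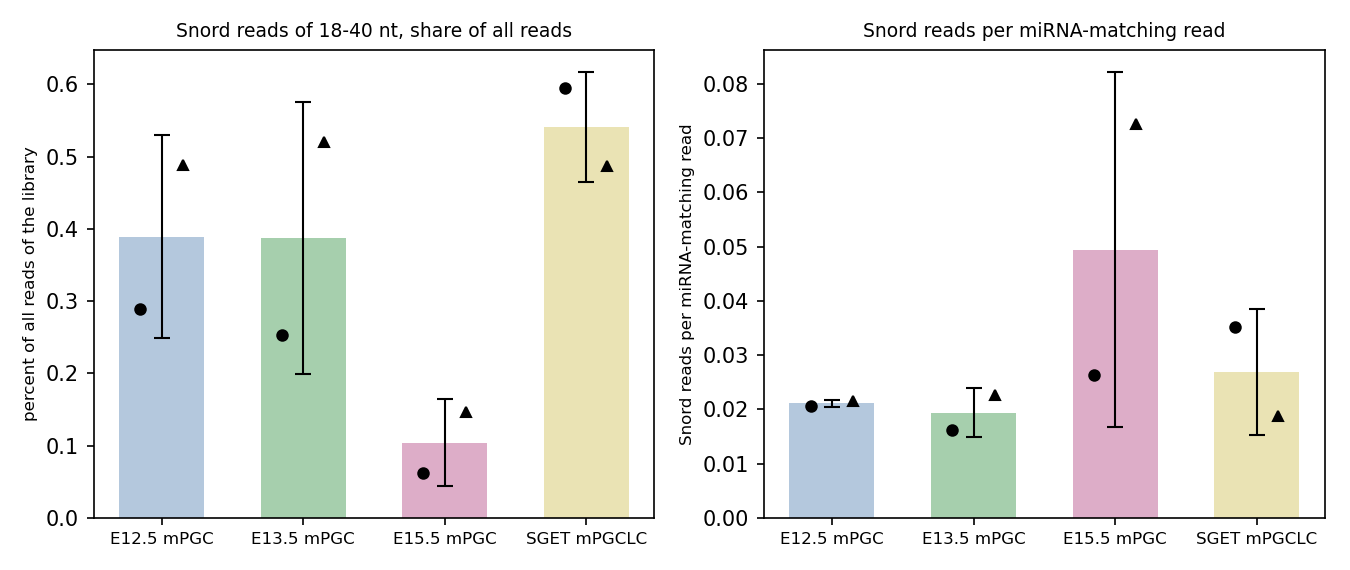
Snord reads of 18 to 40 nt as a percent of all reads (left) and per miRNA-matching read (right), by group; bars are means of 2 libraries, whiskers 1 SD, circles replicate 1 and triangles replicate 2. E15.5 mPGCs were lowest on the left, at 0.0618% and 0.146%, and held the highest library on the right, at 0.0726.

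Genes named Snora, of H/ACA box snoRNAs, the other main snoRNA class, gave fewer reads than Snord genes in every library. Sequences that matched any gene of biotype snoRNA held 1.63% (E12.5), 1.48% (E13.5), 0.289% (E15.5) and 1.85% of reads (SGET mPGCLCs; means of 2 libraries). Most of these reads thus matched genes with other names, whose class was not examined, so both classes here rest on gene names. The mean number of Snord reads per Snora read was 8.90 ± 2.12 (E12.5), 11.3 ± 1.69 (E13.5), 29.5 ± 7.37 (E15.5) and 14.3 ± 1.55 for SGET mPGCLCs (SD, n = 2), with 34.8 and 24.3 for the E15.5 replicates. The share of Snora reads at E15.5, 0.00178% and 0.00602%, was also below that of the other 6 libraries, which ranged from 0.0203% to 0.0515%. Scarna reads, from Cajal body RNAs, made up between 0.000721% and 0.00754% of reads.

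Snord reads of 18 to 40 nt were longer than miRNAs and had no fixed first base. Their median length was 30 and 29 nt (E12.5), 28 and 30 nt (E13.5), 28 and 33 nt (E15.5), and 28 and 27 nt in SGET mPGCLCs, against 22 nt for miRNA-matching reads in all 8 libraries. The most frequent length was 28 nt in 6 libraries, 33 nt in E12.5 replicate 1 and 34 nt in E15.5 replicate 2. Reads of 28 nt made up between 8.24% and 18.9% of Snord reads.

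Short Snord reads of 18 to 23 nt made up 29.2% and 35.3% of Snord reads in SGET mPGCLCs. Their share was 18.3% and 15.8% (E12.5), 27.8% and 11.3% (E13.5), and 18.8% and 14.2% (E15.5), so that the SGET libraries lay above all mPGC libraries, 1 of them narrowly. With Snord reads of 43 nt in the total, the SGET values were 16.2% and 17.2% and the highest mPGC value 16.0%. Without Snord14 genes this separation was lost, with 26.2% in SGET replicate 1 and 27.9% in E13.5 replicate 1. U was the first base of 24.1% and 24.2% of Snord reads at E12.5 and of 22.4% and 3.66% (E15.5), where it opened most other reads. G was the most frequent first base of Snord reads in all 8 libraries, from 34.5% in E12.5 replicate 2 to 71.8% in E15.5 replicate 2.

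**Figure D2:**
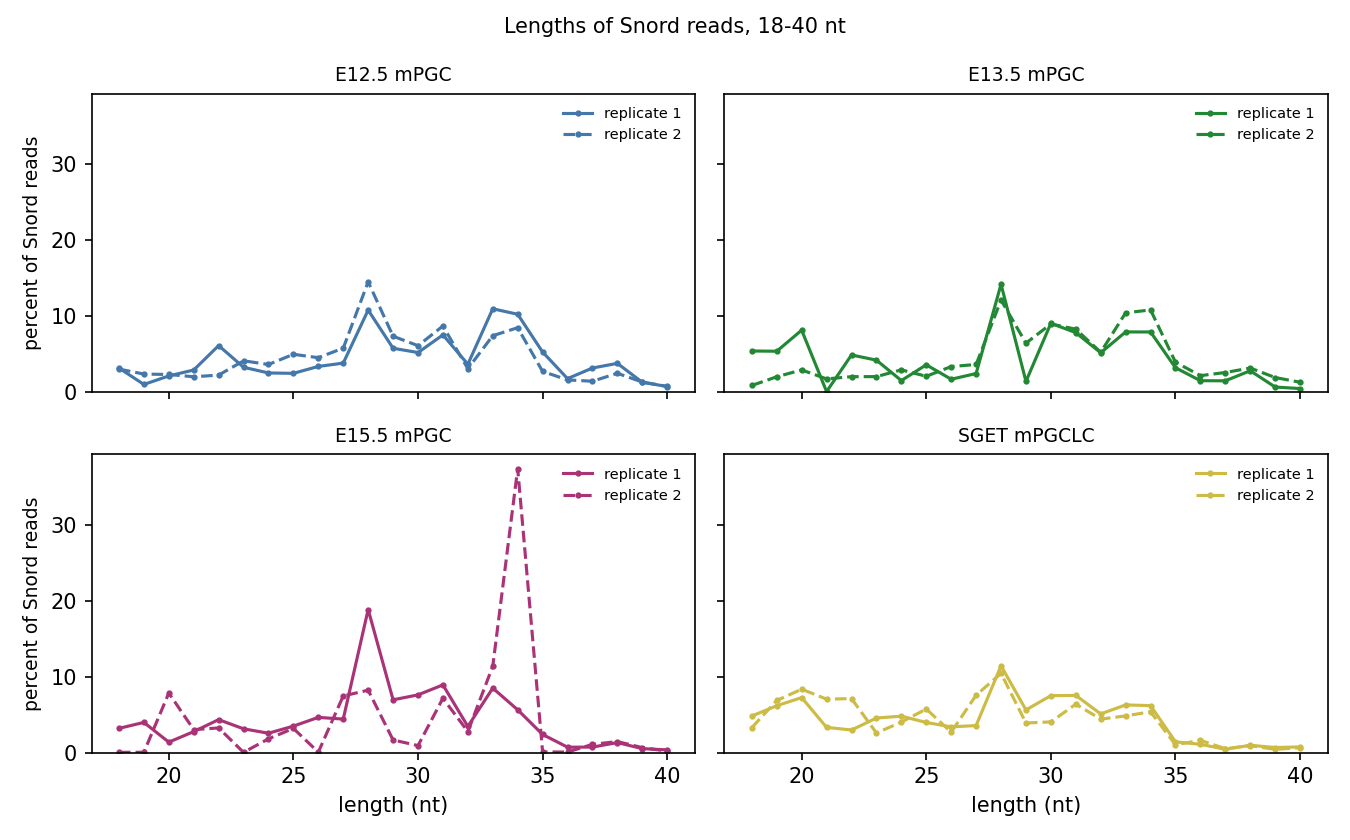
Percent of Snord reads at each length from 18 to 40 nt in each library, with replicate 1 as a solid and replicate 2 as a dashed line. Reads of 34 nt made up 37.5% of Snord reads of E15.5 replicate 2, against at most 10.8% in the other 7 libraries.

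Most Snord reads came from an end of the annotated snoRNA. A read was placed at the 5′ end when its first base lay within 5 nt of the annotated start, at the 3′ end when its last base lay within 5 nt of the annotated end, and otherwise in the middle. The 5′ end held 39.5% and 40.1% of Snord reads (E12.5), 36.9% and 38.1% (E13.5), 29.2% and 19.2% (E15.5), and 49.6% and 47.0% (SGET mPGCLCs). The 3′ end held 42.6% and 38.2%, 44.7% and 41.6%, 49.3% and 72.3%, and 32.5% and 40.9% in the same order. No read of this length spanned a whole snoRNA. Of the 80 genes, 35 had the largest part of their reads at the 5′ end, 31 at the 3′ end and 14 in the middle.

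In reads of 18 to 40 nt, the 5′ end share was thus highest in SGET mPGCLCs and lowest in the E15.5 libraries, with no overlap between groups in any of the 4 comparisons. SGET mPGCLCs exceeded E12.5 by 8.52 percentage points and E13.5 by 10.8, and the difference of E15.5 from E13.5 was -13.3 points (exact permutation p = 0.333 in each, the smallest possible). Without replicate 2 of E15.5 that last difference was -8.34 points, without the leading gene of each group -5.06, and with each distinct sequence counted once -1.15 (exact permutation p = 1). The difference of SGET mPGCLCs from E13.5 was 7.14 points by distinct sequences (exact permutation p = 0.667). The step from E12.5 to E13.5, -2.31 points, was 4.34 points by distinct sequences, so its direction was not kept. Without the 4 Snord14 genes detected, the 5′ end share was 42.97% and 41.2% (SGET mPGCLCs), against 38.6% and 39.3% (E12.5) and 36.8% and 37.8% (E13.5).

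With Snord reads of 43 nt counted as well, the 5′ end share was 75.8% and 80.0% (E12.5), 62.2% and 78.9% (E13.5), 64.9% and 63.8% (E15.5), and 70.4% and 72.0% (SGET mPGCLCs). The difference of SGET mPGCLCs from E12.5 was then -6.72 points (exact permutation p = 0.333), which turns its direction, that from E13.5 was 0.636 (exact permutation p = 1), and E15.5 overlapped E13.5. The order of the groups was thus not kept.

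The 3′ end share at E15.5 was 17.7 points above that at E13.5 (exact permutation p = 0.333), 6.17 points above without replicate 2 of E15.5, 8.69 above without the leading gene of each group, and 1.78 above by distinct sequences (exact permutation p = 1). With ends defined within 2 nt, the 3′ difference was -1.01 points, which turns its direction. Reads in the middle came largely from 2 genes, Snord118 and Snord69, which together gave between 40.5% and 70.0% of them in 7 libraries and 2.69% in E15.5 replicate 2.

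**Figure D3:**
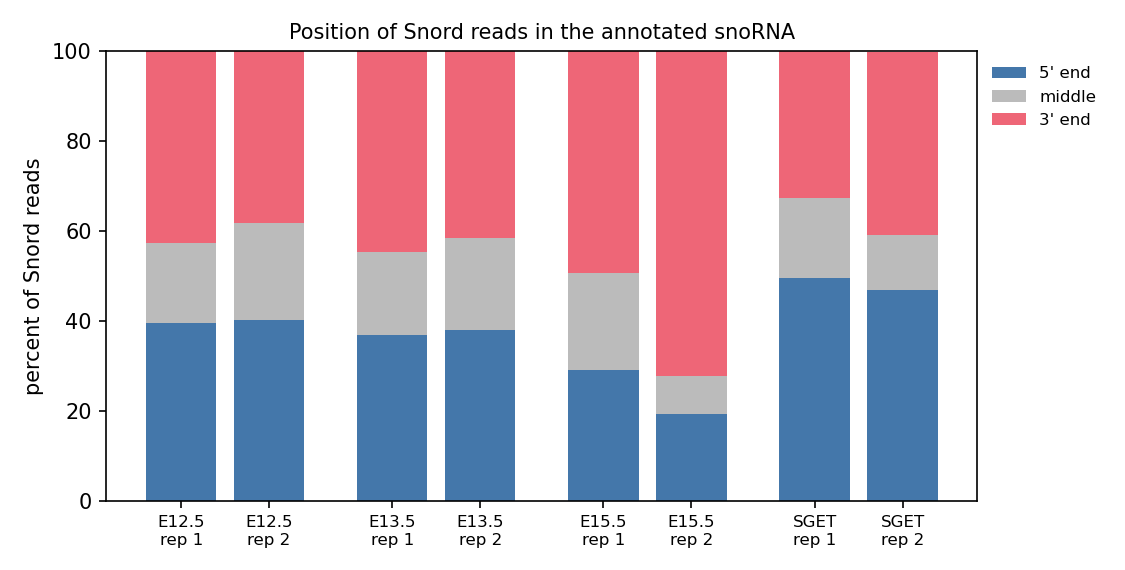
Stacked percent of Snord reads at the 5′ end (blue), in the middle (grey) and at the 3′ end (red) of the annotated snoRNA in each library. SGET mPGCLCs had the highest 5′ end share, 49.6% and 47.0%, and E15.5 replicate 2 the highest 3′ end share, 72.3%.

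Many Snord reads stopped at a fixed distance past a box D sequence. Reads that ended in CTGA and 2 more bases made up 57.4% and 55.5% of Snord reads (E12.5), 65.6% and 59.7% (E13.5), 64.5% and 86.6% (E15.5), and 35.9% and 44.3% (SGET mPGCLCs). Of all 5844 windows of 28 nt in the annotated Snord transcripts, 3.32% ended in this way, and no Snora read did. Among the other 18 to 40 nt reads the share was between 0.845% and 2.75%. Ends 1 base further or nearer were less frequent: CTGA and 3 bases closed at most 4.71% of Snord reads in any library, and CTGA and 1 base at most 2.27%.

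The 2-base offset was found at both ends of the snoRNA. In mPGC libraries it closed between 56.8% and 94.0% of 5′ end reads, where it lies past an internal CTGA, and between 52.9% and 87.8% of 3′ end reads, where it lies past box D. In SGET mPGCLCs it closed 23.9% and 29.8% of 5′ end reads but 64.9% and 66.5% of 3′ end reads. In reads of 18 to 40 nt, the SGET libraries lay below all mPGC libraries for 5′ end reads and within their range for 3′ end reads. In the same window the 5′ end reads of SGET mPGCLCs were also shorter, with a median of 27 and 25 nt against 30 to 33 nt in mPGCs. Snord reads of 43 nt, of which 95.7% to 97.4% began at the 5′ end, outnumbered these 5′ end reads in every library. With them counted, the median 5′ end read is thus 43 nt in all libraries, and the difference in length is lost. The share of 5′ end reads with the 2-base offset was not obtained with them counted.

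Over all Snord reads of 18 to 40 nt, the share with this end was 16.3 percentage points lower in SGET mPGCLCs than at E12.5 and 22.5 lower than at E13.5 (exact permutation p = 0.333 in each). Without Snord14 genes it was 40.7% and 49.1% (SGET mPGCLCs), still below the lowest mPGC library at 57.1%. By distinct sequences, each counted once, it was 31.2% and 40.3% in SGET mPGCLCs and 32.4% to 51.9% in mPGCs, and the groups overlapped. With Snord reads of 43 nt counted as well, it was 23.8% and 19.5% (E12.5), 39.9% and 21.9% (E13.5), 35.3% and 38.95% (E15.5), and 21.8% and 23.7% (SGET mPGCLCs). The difference of SGET mPGCLCs was then 1.10 points from E12.5 (exact permutation p = 1) and -8.13 from E13.5 (exact permutation p = 0.667), and the groups overlapped. The 3′ end of a 43 nt read may not be seen, so these values do not show how longer fragments end.

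TGATGA, the end of box C, was held by 41.9% and 45.9% of Snord reads (E12.5), 38.6% and 42.7% (E13.5), 42.7% and 24.1% (E15.5), and 53.5% and 46.3% (SGET mPGCLCs). It was present in 12.9% of 28 nt windows of Snord transcripts and in 74 of 98 Snord transcripts. Among 5′ end reads, 71.2% to 94.7% held it. It was held by 55.1% to 73.5% of Snord reads when those of 43 nt were counted as well. All motif searches were of the sense strand only.

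Sequences of the leading fragments are shown because they make these ends visible. They are the most abundant fragment of 7 leading genes, chosen because it ends in this way, with CTGA in capitals. The leading fragment of Snord55 ends in this way as well but is not shown. The leading fragments of Snord118 and Snord14c, shown further below, do not end so.
Snord100: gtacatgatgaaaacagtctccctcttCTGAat
Snord21: gccaatgatgacaccacactaaCTGAgc
Snord82: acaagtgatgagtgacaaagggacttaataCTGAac
Snord69: agcagtgatgacagattggatCTGAct
Snord49a: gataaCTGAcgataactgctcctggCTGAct
Snord85: ggtcgatgatgagagctttgttCTGAgc
Snord104: ccgggtgatgcgaatcgtaatCTGAgc
The first 3 lie at the 5′ end of their snoRNA, Snord69 begins at base 8, and the last 3 lie at the 3′ end.

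**Figure D4:**
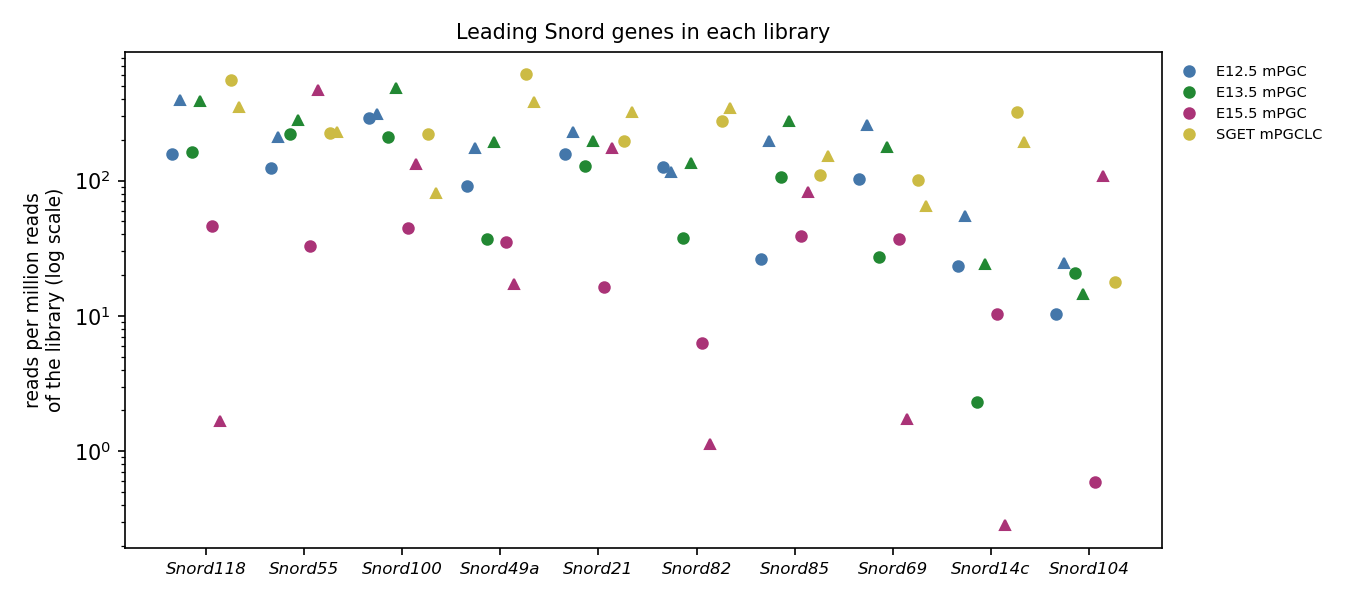
Reads per library in RPM (log axis) for the 10 Snord genes that were among the 5 highest in at least 1 group; circles are replicate 1, triangles replicate 2, and values of 0 are not drawn (Snord104 in SGET replicate 2). Reads are of 18 to 40 nt; in these, Snord49a and Snord14c lie higher in both SGET libraries than in all mPGC libraries, which held for Snord14c but not for Snord49a with 43 nt reads counted, and E15.5 replicate 2 spans from 0.282 for Snord14c to 468 for Snord55.

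The 5 leading genes of each group held 28.6% of Snord reads (E12.5), 31.6% (E13.5), 52.7% (E15.5) and 32.8% (SGET mPGCLCs). The E15.5 value came from replicate 2, with 65.8%, whereas the same genes held 21.5% in replicate 1. Gene levels below are reads of 18 to 40 nt scaled to the same library total (RPM), with a sequence shared by several Snord genes split equally among them. With reads of 43 nt counted as well, the order differed: Snord49a (1362 RPM), Snord100 (1245 RPM) and Snord80 (1145 RPM) led at E12.5, Snord100, Snord49a and Snord80 at E13.5, Snord55, Snord49a and Snord100 at E15.5, and Snord49a, Snord80 and Snord96a in SGET mPGCLCs. Snord21 then ranked 12, 12, 7 and 10, and Snord118 11, 10, 24 and 4, in the 4 groups in order. In reads of 18 to 40 nt, Snord100, an intronic snoRNA of the ribosomal protein gene Rps12 (chr10:23785750-23785823, minus strand, GRCm38), led at E12.5 and E13.5. Its level was 288 and 312 RPM (E12.5), 208 and 484 RPM (E13.5), 44.6 and 133 RPM (E15.5), and 222 and 80.4 RPM (SGET mPGCLCs). Per transcript length it also ranked first in both groups, where the other 4 leading genes ranked 2 to 5, and at E15.5 Snord55 ranked first. Per length in SGET mPGCLCs, Snord49a ranked first, Snord82 2, Snord118 4, Snord14c 5 and Snord21 8. Snord100 was lower at E15.5 than in the earlier mPGCs, and the SGET libraries overlapped both.

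Snord118, or U8, acts in the processing of the large-subunit ribosomal RNA precursor and has no host gene in the annotation (chr11:69073427-69073561, plus strand). It gave 157 and 393 RPM (E12.5), 161 and 386 RPM (E13.5), 46.4 and 1.66 RPM (E15.5), and 555 and 352 RPM (SGET mPGCLCs). Its most abundant fragment was 28 nt long and began at base 48 of 135, with no CTGA at its end, and 99.7% of its reads lay in the middle. The annotated transcript is shown with that fragment in capitals, to place it in the molecule.
Snord118: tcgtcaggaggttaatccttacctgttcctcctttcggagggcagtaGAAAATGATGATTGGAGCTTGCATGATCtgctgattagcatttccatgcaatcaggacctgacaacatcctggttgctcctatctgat
The fragment holds TGATGA and lies in the middle of the annotated RNA.

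Snord55 led at E15.5 through replicate 2. Its level was 124 and 209 RPM (E12.5), 221 and 278 RPM (E13.5), 32.8 and 468 RPM (E15.5), and 224 and 228 RPM (SGET mPGCLCs). The E15.5 libraries lay on both sides of all others. Snord104, also among the 5 leading genes of E15.5, had 0.588 RPM in replicate 1 and 108 RPM in replicate 2.

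Snord21 in Rpl5 (chr5:107904555-107904648, plus strand) was among the 5 leading genes of all groups. It gave 158 and 227 RPM (E12.5), 128 and 195 RPM (E13.5), 16.2 and 173 RPM (E15.5), and 196 and 318 RPM (SGET mPGCLCs). The SGET libraries overlapped the E12.5 libraries, and so did those of E15.5 and E13.5. Its reads came from both ends, with 42.8% at the 5′ end and 57.0% at the 3′ end over all libraries. Its transcript is shown with the 5′ fragment in capitals.
Snord21: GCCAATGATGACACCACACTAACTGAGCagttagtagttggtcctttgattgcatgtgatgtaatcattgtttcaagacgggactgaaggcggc
A 20 nt 3′ fragment of Snord21 is shown with CTGA in capitals, since its level differed between replicates.
Snord21 3′ fragment: gtttcaagacgggaCTGAag
It was high in 1 replicate each of E15.5 and SGET mPGCLCs, at 114 and 111 RPM, and at most 11.9 RPM in the other 6 libraries.

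Snord49a led in SGET mPGCLCs. This snoRNA, in the host gene 2410006H16Rik (chr11:62603450-62603521, plus strand), gave 612 and 379 RPM there, against 91.4 and 173 RPM (E12.5), 37.1 and 192 RPM (E13.5), and 35.3 and 17.1 RPM (E15.5). Snord82, in the nucleolin gene Ncl (chr1:86356261-86356330, minus strand), followed the same order, with 274 and 343 RPM (SGET mPGCLCs), 126 and 115 RPM (E12.5), 37.3 and 134 RPM (E13.5), and 6.32 and 1.13 RPM (E15.5). For both genes, in reads of 18 to 40 nt, the SGET libraries lay above all mPGC libraries and the E15.5 libraries below the others. With reads of 43 nt counted as well, Snord49a gave 1681 and 1450 RPM (SGET mPGCLCs), 835 and 1889 RPM (E12.5), 278 and 1942 RPM (E13.5), and 144 and 301 RPM (E15.5), and Snord82 gave 383 and 567 RPM (SGET mPGCLCs), 455 and 589 RPM (E12.5), 149 and 556 RPM (E13.5), and 42.5 and 130 RPM (E15.5). The SGET libraries then overlapped those of E12.5 and E13.5 for both genes, and for Snord49a the E15.5 libraries overlapped those of E13.5.

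Snord14c, 1 of several near-identical U14 genes in introns of Hspa8 (chr9:40803583-40803668, plus strand), was among the 5 leading genes of SGET mPGCLCs only. With reads of 43 nt counted as well, it ranked 12 there. U14 acts in 18S ribosomal RNA maturation. Snord14c had 321 and 192 RPM (SGET mPGCLCs), 23.3 and 54.2 RPM (E12.5), 2.32 and 24.3 RPM (E13.5), and 10.4 and 0.282 RPM (E15.5). Its most abundant fragment, which matches Snord14d as well, was the first 19 nt of the transcript and is in capitals below, so reads of the copies cannot be assigned to 1 gene.
Snord14c: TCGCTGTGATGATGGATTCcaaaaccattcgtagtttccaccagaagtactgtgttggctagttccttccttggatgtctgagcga
This fragment gave 123 and 121 RPM in SGET mPGCLCs and between 0 and 18.7 RPM in mPGCs, and it ends upstream of any CTGA.

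No Snord gene passed the test across all genes in any comparison (edgeR quasi-likelihood test, Benjamini-Hochberg adjusted p under 0.05). The fits used reads of 18 to 40 nt. Of the 97 Snord genes, 75 passed the filter on low counts, among 8167 genes fitted. The share of all fitted genes called was 0.931% for E13.5 over E12.5, 1.37% for E15.5 over E13.5, 0.673% for SGET over E12.5 and 2.68% for SGET over E13.5. The common dispersion of the fit was 4.61, and a gene that was not called is not shown to be unchanged.

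At an unadjusted p under 0.05 in edgeR, the Snord genes numbered 0 of 75 for E13.5 over E12.5, against 5.89% of all genes, and 17 for E15.5 over E13.5, against 8.4%. They numbered 2 for SGET over E12.5, against 6.09%, and 5 for SGET over E13.5, against 12.3%. The 17 genes were lower at E15.5. With TMM the number was 3, against 743 of all 8167 genes, and with DESeq2 it was 2, against 1410. In these fits Snord genes thus fell below the share of all genes, whereas in the main fit they lay above it. With a replicate block the number was 9, against 418 of all genes, again above that share. Fits with a library left out leave a group with a single library, so their counts are not given. By adjusted p, DESeq2 called 0 Snord genes for E13.5 over E12.5, against 9% of all genes, 1 for E15.5 over E13.5, against 9.82%, 0 for SGET over E12.5, against 7.69%, and 1 for SGET over E13.5, against 18%. Both were lower.

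Between E12.5 and E13.5, 6 of the 75 fitted Snord genes were higher at E13.5 with no overlap of libraries, against 17.4% of all genes fitted, and 9 were lower, against 6.91%. The Snord numbers were 2 and 2 with 43 nt reads counted, where the share of all genes was not obtained. The median log2 fold change of Snord genes was -0.16, and -1.71 to 0.33 with a library left out. That of all genes was 1.04, and 0 to 1.40 with a library left out, in fits that also took in more genes. With TMM the median was -0.72 for Snord genes and 0.45 for all genes. The smallest p was that of Snord49b, which is named here after its values were seen, at 0.134 and 20.4 RPM (E12.5) and 60.2 and 41.2 RPM at E13.5 (log2 fold change 2.30, SE 1.97, edgeR adjusted p = 0.622; 1.31 to 8.47 over all settings).

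From E13.5 to E15.5, 34 of the 75 fitted Snord genes had lower values in both E15.5 libraries, against 15.9% of all genes fitted, and 0 had higher values in both, against 16.2%. The Snord numbers were 41 and 0 with 43 nt reads counted, a window for which the share of all genes was not obtained. The median log2 fold change was -3.08 for Snord genes and -0.23 for all genes. Scaling moved the median of all genes, by 0.57 with TMM and by 3.34 with DESeq2 size factors, and with the latter the Snord median was 0.45, on the other side of 0. Relative to the median of all genes, the Snord median was -2.84, -2.68 with TMM and -2.65 with DESeq2. With a library left out, this difference ranged from -7.18 to 0.01, and the Snord median from -5.71 to -0.50. Those fits also took in 11167 to 15144 genes against 8167, so the move cannot be put down to the library alone. With all libraries and no filter on low counts, the median was 0.80 for all genes and -3.01 for Snord genes. The smallest p was that of Snord82 (log2 fold change -4.52, SE 1.47, edgeR adjusted p = 0.122), whose log2 fold change was -1.14 with DESeq2 and -6.23 to -3.32 with a library of the 2 groups left out. For Snord118 the log2 fold change was -3.49 (SE 1.15, edgeR adjusted p = 0.133), -0.21 with DESeq2 and -2.54 without replicate 2 of E15.5, and the adjusted p ranged from 0.00492 to 0.962 over all settings. The lowest p came from the fit without replicate 1 of E15.5 (log2 fold change -7.38), in which E15.5 is a single library, the one set apart above, and the spread comes from the other groups only.

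For SGET mPGCLCs, the Snord genes fell on both sides of the mPGCs. Over E12.5, 15 of 75 were higher in both SGET libraries, against 3.24% of all genes, and 18 were lower, against 18.5%. Over E13.5, 15 were higher, against 3.07%, and 10 were lower, against 22.2%. Counting 43 nt reads, 7 Snord genes were higher and 18 lower over E12.5, and 7 were higher and 9 lower over E13.5. The share of all genes was not obtained with 43 nt reads, so these counts have no background to be read against. The median log2 fold change of Snord genes was 0.13 over E12.5 and 0.06 over E13.5, and that of all genes -1.22 and -6.99. With a library left out, the Snord median was -0.83 to 0.47 over E12.5 and -0.42 to 1.52 over E13.5, so its sign was not kept. The median of all genes was then -0.16 to 0 over E12.5 and -6.71 to 0 over E13.5. Those fits also took in more genes, so the library alone cannot be held to have moved it. With all libraries and no filter on low counts, the median of all genes was 0 over E12.5 and 0 over E13.5. Both comparisons use the same SGET libraries. Whether these counts differ from those of other gene groups was not tested.

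The smallest p for SGET over E12.5 was that of Snord93, singled out after its values were seen, which gave 185 and 293 RPM (SGET mPGCLCs), 4.97 and 19.0 RPM (E12.5), 24.4 and 7.20 RPM (E13.5) and 0.294 and 0.678 RPM at E15.5 (log2 fold change over E12.5 4.96, SE 2.002, edgeR adjusted p = 0.521; 4.28 to 9.18 over all settings). For SGET over E13.5 it was that of Snord14d (log2 fold change 4.77, SE 1.99, edgeR adjusted p = 0.252; 3.97 to 6.75 over all settings). For both genes the libraries of the groups compared did not overlap.

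The list of members that act in ribosomal RNA processing held 7 genes, all detected (Snord118, Snord14a, Snord14c, Snord14d, Snord14e, Snord13 and Snord22). Their summed level was 1314 and 840 RPM (SGET mPGCLCs), 247 and 614 RPM (E12.5), 197 and 512 RPM (E13.5), and 81.6 and 2.67 RPM (E15.5). Both SGET libraries lay above all mPGC libraries in this sum, and with reads of 43 nt counted as well, at 1425 and 1045 RPM against at most 881 RPM. Without the Snord14 genes it was 614 and 364 RPM (SGET mPGCLCs), 191 and 469 RPM (E12.5), 192 and 452 RPM (E13.5), and 48.7 and 1.85 RPM (E15.5), and the SGET libraries overlapped those of E12.5 and E13.5. Snord22 (41.3 and 11.9 RPM), Snord13 (18.4 and 0 RPM) and Snord14a (0 in both) were within the range of mPGCs. Of 6 members fitted, 0 were called in any comparison, and their median log2 fold change was -0.94 for E13.5 over E12.5, -2.35 for E15.5 over E13.5, 1.04 for SGET over E12.5 and 1.96 for SGET over E13.5.

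Snord genes inside ribosomal protein genes or Rack1 were the largest list, with 23 genes, all detected. They gave 1252 and 1593 RPM (E12.5), 1103 and 1918 RPM (E13.5), 228 and 1069 RPM (E15.5), and 1472 and 1470 RPM (SGET mPGCLCs). With 43 nt reads counted they gave 3498 and 6295 RPM (E12.5), 1959 and 7042 RPM (E13.5), 519 and 1832 RPM (E15.5), and 3288 and 3426 RPM (SGET mPGCLCs). Snord100 and Snord21, described above, were among the leading members. The list made up 43.2% and 32.6% of Snord reads (E12.5), 43.5% and 36.8% (E13.5), 36.9% and 73.0% (E15.5), and 24.8% and 30.2% (SGET mPGCLCs), so that only replicate 2 of E15.5 lay above the other mPGC libraries. Both SGET libraries lay below all mPGC libraries. With 43 nt reads counted they did so as well, at 30.8% and 34.3% against at least 38.4%. This difference was not tested. Of 21 members fitted, 0 were called, and their median log2 fold change was -0.25 for E13.5 over E12.5, -1.84 for E15.5 over E13.5, -0.87 for SGET over E12.5 and -0.36 for SGET over E13.5.

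The 3 Snord genes inside Gas5, a noncoding host gene, were Snord80, Snord78 and Snord47. Their summed level was 142 and 293 RPM (E12.5), 125 and 248 RPM (E13.5), 29.8 and 27.3 RPM (E15.5), and 191 and 75.0 RPM (SGET mPGCLCs). The E15.5 libraries lay below all others, and 0 of the 3 were called. Snord22 was the only annotated member inside Snhg1, with 66.3 RPM at most, and was not called.

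In the imprinted Snrpn-Ube3a cluster, whose snoRNAs are known for their expression in brain, the genes annotated with a Snord name gave few reads. No gene named Snord115 was annotated as a snoRNA, so none was counted. Only Snord64 and Snord107 of the cluster's 19 genes annotated under the names sought had reads. Its summed level was 29.002 and 40.9 RPM (E12.5), 9.38 and 53.1 RPM (E13.5), 3.75 and 0.113 RPM (E15.5), and 32.6 and 45.6 RPM (SGET mPGCLCs), and 0 of the 2 were called. A count of 0 for a Snord116 copy allows a share of up to 4.03e-05% in the smallest library. No gene named Snord113 or Snord114 was annotated as a snoRNA, so the Dlk1-Meg3 list had 0 members.

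Over the 80 genes detected, levels were compared between libraries by rank. Spearman's rho between libraries was 0.581 to 0.776 within groups (4 pairs) and 0.439 to 0.894 between groups (24 pairs), as a description across genes, which are not independent replicates and share annotation and sequence. Of these genes, 47 had reads in all 8 libraries. Gene counts are uncertain for copies and hosts, since 67 of the 1747 sequences matched more than 1 Snord gene and 918 also matched a transcript of another gene.

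Markers of the cells were read from miRNA genes. The 10 pluripotent and germ cell miRNAs, led by Mir292, were all detected and summed to 34763 and 51239 RPM (E12.5), 28566 and 39141 RPM (E13.5), 2911 and 2177 RPM (E15.5), and 54968 and 85370 RPM (SGET mPGCLCs). Red blood cell miRNAs (Mir451a and Mir144), both detected and led by Mir144, summed to 3.70 RPM in E13.5 replicate 2, 0.0753 RPM in E15.5 replicate 2 and 0 in the other 6 libraries. White blood cell miRNAs, Mir142 and Mir223, were both detected, with Mir142 the higher over all libraries together and Mir223 the higher in E15.5 replicate 1 (8.31 against 1.54 RPM) and SGET replicate 1, and summed to 11.5 and 21.9 RPM (E12.5), 0 and 23.6 RPM (E13.5), 9.85 and 0.603 RPM (E15.5), and 0.0979 and 0 RPM (SGET mPGCLCs). The endothelial Mir126a gave 17.5 and 45.8 RPM (E12.5), 36.6 and 60.1 RPM (E13.5), 0.0735 and 1.32 RPM (E15.5), and 69.4 and 27.3 RPM (SGET mPGCLCs).

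Mir202, of Sertoli cells and gonadal soma, was 149 and 174 RPM (E12.5), 272 and 433 RPM (E13.5), 55.7 and 58.3 RPM (E15.5), and 0 in both SGET libraries. The 5 mesenchymal miRNAs, all detected and led by Mir199a-2, which shares its mature sequences with Mir199a-1, summed to 223 and 249 RPM (E12.5), 157 and 836 RPM (E13.5), 92.5 and 221 RPM (E15.5), and 870 and 1657 RPM (SGET mPGCLCs). They were thus highest in SGET mPGCLCs, where 1 library lay close to E13.5 replicate 2, as was the sum of the ribosomal RNA processing list above, and the part of other cells in the Snord values was not tested.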

How the data were processed

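Small RNA libraries (NextFlex small RNA v3) of sorted cells were trimmed with cutadapt 3.2 and aligned to GRCm38 with STAR 2.5.3a, per the submitters' processing notes. The deposited files give, per sequence, raw read counts made by the authors, with no normalization, for lengths of 15 to 43 nt. The study names 2 instruments and the files do not tell their reads apart, so a batch could not be examined. Exact sense matches were sought in GENCODE M21 transcripts (GRCm38). Shares used all reads of a library as the total and were compared with a two-sided exact permutation test. Gene counts, with a sequence that matches several genes split equally, were tested with edgeR 4.0.16 (quasi-likelihood, filterByExpr, library size as the total, all 4 groups in 1 fit), with DESeq2 1.42.0 as an alternative, and the fits were tested on simulated data. R 4.3.3 and Python 3.11.15 were used.

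Replicates are those of the sample labels. Named genes were the 5 highest by mean share in each group, called genes with no overlap of libraries (0 were found), and up to 3 members of each list by mean share. The Snord gene with the smallest p in each comparison was added after the values were seen, as were the splits by Snord14 and by middle genes and the window that includes 43 nt reads for shares, ends and gene levels. The members and lists were chosen with earlier results of these data known. Totals ranged from 7447873 to 26552524 reads. A count of 3 was taken as the limit that 0 allows. Alternatives covered the denominator, length window, end tolerance, distinct sequences, scaling, filter, multiple matches, a replicate block and each replicate left out.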

Additional observations from a re-analysis of the deposited data

Results flagged for a closer look

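Snord-matching reads outside the 18 to 40 nt window were found in all groups, above the limit that a count of 0 allows. Reads of 15 to 17 nt made up 0.0271% of reads (E12.5), 0.0323% (E13.5), 0.00245% (E15.5) and 0.0533% (SGET mPGCLCs; means of 2 libraries), with 0.0180% and 0.0363% (E12.5), 0.0393% and 0.0254% (E13.5), 0.00343% and 0.00147% (E15.5), and 0.0553% and 0.0512% (SGET mPGCLCs) in the replicates. Reads over 40 nt made up 0.838%, 0.681%, 0.132% and 0.493% in the same order, with 0.523% and 1.15% (E12.5), 0.188% and 1.17% (E13.5), 0.0680% and 0.197% (E15.5), and 0.473% and 0.512% (SGET mPGCLCs) in the replicates. All were 43 nt long, the longest length in the libraries, while no sequence of 41 or 42 nt was present. Between 95.7% and 97.4% of these 43 nt reads began at the 5′ end of the snoRNA. Whether a 43 nt read is a whole fragment or the first part of a longer one cannot be told apart, and the 3′ end of a longer one would not be seen. They numbered 0.741 to 2.36 per Snord read of 18 to 40 nt, and were led by Snord49a. With them counted, the share of Snord reads was 0.813% and 1.64% (E12.5), 0.442% and 1.70% (E13.5), 0.130% and 0.343% (E15.5), and 1.07% and 0.999% (SGET mPGCLCs).

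Snord43, whose gene is annotated with the biotype miRNA and so is outside the definition used, gave 0.0116% of reads (E12.5), 0.0104% (E13.5), 0.00311% (E15.5) and 0.0174% (SGET mPGCLCs), with 0.00510% and 0.0182% (E12.5), 0.00459% and 0.0163% (E13.5), 0.000757% and 0.00546% (E15.5), and 0.0177% and 0.0172% (SGET mPGCLCs) in the replicates.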

How the results depend on the processing

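Matching was to annotated transcripts only, and the planned match to transcripts extended by 10 nt of genome was not run, since no genome sequence was given. Alternatives that use the valley between rare and abundant sequences of each library, the fit with Snord reads counted to Snord genes only, and the window that includes 43 nt reads, were chosen after seeing the data. With 2 libraries a group, no exact test can pass 0.05. Depth limits the rare sequences, and a few sequences can carry a library: the most abundant held 31.9% of Snord reads in E15.5 replicate 2. The cause was not tested.

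The Snord share ratio of E13.5 to E12.5 (0.995) was 1.08 without 24 to 33 nt 5′-U reads in the total, and 0.652 to 1.34 with a replicate left out, so its direction was not kept. That of E15.5 to E13.5 (0.269) was 2.55 against miRNA-matching reads (1.36 without E15.5 replicate 2), and 0.160 to 0.411 with a replicate left out. Counted as distinct sequences, the ratio of SGET mPGCLCs was 0.567 to E12.5 and 0.764 to E13.5, below 1 where reads gave 1.39 and 1.40, but distinct sequences above the valley gave 1.696 to E12.5 and 1.703 to E13.5. With 43 nt reads included, the ratios were 0.842 to E12.5 and 0.967 to E13.5. With a replicate left out, the ratios by reads of 18 to 40 nt were 1.11 to 1.87 and 1.04 to 2.13. The cause was not tested.

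The 5′ end percent depended on how an end was defined. Within 2 nt it was 29.4 (E12.5), 26.5 (E13.5), 15.4 (E15.5) and 36.1 (SGET mPGCLCs). Within 10 nt it was 44.6 for E12.5 and 40.9 for E13.5, and by the midpoint of the read along the transcript 45.1 and 41.9. As distinct sequences it was 32.3, 36.6, 35.5 and 43.8 for the 4 groups in order, and above the valley 30.7, 33.02, 27.9 and 44.3. With 43 nt reads included it was 77.9, 70.6, 64.3 and 71.2, and the difference of SGET mPGCLCs from E12.5 (8.52) was -6.72. Without the leading gene of the group it was 35.7, 33.4, 28.4 and 51.0. The difference of E13.5 from E12.5 (-2.31) was 4.34 with distinct sequences and 2.29 with those above the valley. That of E15.5 from E13.5 (-13.3) was -1.15 with distinct sequences, -5.14 above the valley and -5.06 without the leading gene. With a replicate left out, the differences were -2.87 to -1.75 for E13.5 from E12.5, -18.3 to -8.34 for E15.5 from E13.5, 7.19 to 9.84 for SGET mPGCLCs from E12.5, and 9.50 to 12.2 from E13.5. The cause was not tested.

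The 3′ end percent within 2 nt was 22.0, 20.3, 19.3 and 21.4 for the 4 groups in order. Within 10 nt it was 44.8 for E12.5 and 48.8 for E13.5, and by the midpoint 44.9 and 48.8. As distinct sequences it was 48.8 for E12.5, and above the valley 51.0 for E12.5 and 47.5 for E13.5. With 43 nt reads included it was 13.47, 19.4, 27.4 and 19.2, and the difference of SGET mPGCLCs from E12.5 (-3.68) was 5.70. The difference of E13.5 from E12.5 (2.76) was -1.71 within 2 nt, -5.13 with distinct sequences and -3.50 above the valley. Within 2 nt, the difference of E15.5 from E13.5 (17.7) was -1.01 and that of SGET mPGCLCs from E13.5 (-6.44) was 1.13. The difference of SGET mPGCLCs from E12.5 was -7.86 to 0.491 with a replicate left out. The cause was not tested.

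No Snord gene was called by edgeR in any comparison with all libraries. DESeq2 called 1 lower gene of 75 in E15.5 over E13.5, where it called 9.82% of all genes, and 1 in SGET over E13.5, where it called 18%. Fits with a replicate left out leave a group with a single library, so edgeR calls from them are not counted. The log2 fold change of Snord118 for E13.5 over E12.5 (-0.03) was -0.74 to 0.76 with a replicate left out. For E15.5 over E13.5 (-3.49) it was -0.21 with DESeq2, -2.54 without E15.5 replicate 2, and -7.38 without E15.5 replicate 1, a fit with a single E15.5 library. That of Snord82 (-4.52) was -1.14 with DESeq2 and -6.23 to -3.32 with a replicate left out, and that of Snord49b for E13.5 over E12.5 (2.30) was 1.31 to 8.47. The cause was not tested.

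Replicate numbers share only a number between groups: correlations of deviations of same-numbered replicates were 0.015, -0.095, -0.009 and -0.005 for the 4 comparisons in order. With a replicate block, the share ratios were 0.966, 0.262, 1.43 and 1.48, and 0 Snord genes were called.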

Other observations

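Reads of H/ACA box snoRNAs (Snora genes) in E15.5 replicate 2 differed in length from those of the other libraries: 97.2% of them were 36 to 40 nt long, with a median of 39 nt, against at most 6.19% of that length elsewhere. Their first base was G in 97.5% of reads, against at most 25.8% elsewhere.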
